A study of Mus musculus with 24 samples.

Results

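mmu-miR-184-3p, called miR-184-3p here, is the 3p strand of mouse miR-184, and it was 1 of the 1881 mouse miRNAs with probes on the arrays. Its probes were taken by name in the scanner output. The choice of this miRNA was made with earlier results of these data known. Its level was measured on 24 one-color arrays, 1 for each of 8 tissues in each of 3 lens groups. The tissues were cornea, iris, lens, retina, choroid (described in the methods as RPE with choroid), sclera, and 2 brain regions given in the labels as SCN and LGN. All groups were C57BL/6J mice, described in the methods as male and 3 weeks old at the start. The control group, called normal here, had untreated eyes. The 0 D group wore a lens without power, and the lens-induced group wore a −30 D lens for 3 weeks, fixed over the right eye. For the ocular tissues of normal and lens-induced eyes, RNA of 3 mice was mixed before labeling. For the 0 D group and for the brain regions, pooling was not given in the sources used here. Each slide held the 8 tissues of 1 group, so the effects of slide and of lens cannot be told apart. With 1 array per tissue and group, no test within a tissue was possible, and the number of arrays limits the precision throughout.

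A miRNA guides an Argonaute protein to messenger RNAs that pair with its seed, the bases 2 to 8 from its 5′ end, and this lowers the output of those messages. The 2 strands of the hairpin give a 5p and a 3p product, of which usually one is kept. miR-184 is a conserved miRNA known for its abundance in the corneal epithelium and the lens, and inherited changes in the seed of the human gene are known to affect both tissues. In the mouse it comes from the gene Mir184 on chromosome 9, minus strand. The sequences are from RefSeq on GRCm38.p6 and show the 2 strands and the seed by which miR-184-3p was compared with other miRNAs. Capitals mark the seed in the mature strands and both mature strands in the hairpin.
miR-184-3p: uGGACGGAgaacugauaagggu
miR-184-5p: cCUUAUCAcuuuuccagccagc
Mir184 hairpin: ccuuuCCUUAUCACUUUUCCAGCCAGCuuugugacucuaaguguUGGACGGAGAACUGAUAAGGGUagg

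The 69-base hairpin lies at chr9:89802260-89802328 and the 3p strand at chr9:89802263-89802284, where 0 other annotated genes overlap it. The nearest protein-coding genes are Ankrd34c, 63525 bases to the lower side, and Rasgrf1, 107180 bases to the higher side. Of 1679 mature mouse miRNA names, the seed GGACGGA occurred in 1, miR-184-3p itself. The arrays carried 1881 miRNAs, so this search did not cover all of them. Cross-hybridization of the probes does not depend on the seed alone and was not tested. Each array carried 2 probes for the 3p strand with 15 spots each. On the 18 ocular arrays the signal of one probe was 1.01 to 1.09 times that of the other, and the coefficient of variation over the spots of a probe was 7.15% to 15.1%. 0 of these spots were saturated, so the high signals of the cornea were within the range of the scanner. The 5p strand was detected on 0 of 24 arrays. Its summed probe signal lay between −2.89 and 1.62 against detection limits of 6.94 to 12.3, the limit being 3 errors of each probe, summed. The arrays therefore measured the 3p strand, while the 5p strand was below what they could detect.

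miR-184-3p was detected on 20 of 24 arrays, among them all 18 ocular arrays, and its signal differed widely between tissues. Signals were scaled to an equal 75th percentile over the 79 miRNAs detected on every array, and each ± beside a single array is the error that the image software gave for the probes. In the cornea the scaled signal was 36854 ± 2617 in normal eyes, 29710 ± 2110 with the 0 D lens and 34076 ± 2420 in lens-induced eyes. In the lens it was 16120 ± 1146, 11130 ± 791 and 16390 ± 1167 in the same order of groups. The cornea was above the lens in each group, and both stood far above every other tissue. In the iris the scaled signal was 505 ± 36.0, 550 ± 39.0 and 541 ± 38.5. Within each group the cornea was 54.1 to 72.9 times the iris, and the lens was 20.2 to 31.9 times the iris. These factors depend on the scaling: without it the cornea was 15.6 to 29.1 times the iris and the lens 4.17 to 8.38 times, because the cornea and lens arrays had the largest log2 scaling factors (0.69 to 1.65).

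The sclera, the choroid and the retina held a low but measurable signal. In the sclera it was 123 ± 8.88, 111 ± 8.34 and 275 ± 19.7, the lens-induced array being the highest. In the choroid it was 147 ± 10.6, 99.7 ± 7.41 and 132 ± 9.57, so that the ranges of sclera and choroid overlapped. The retina was lower than both in every group, at 70.5 ± 5.22, 32.6 ± 2.61 and 40.7 ± 3.24. In the SCN and the LGN the miRNA was not detected in normal or 0 D mice, with limits of 10.1 and 6.71 in the SCN and 5.74 and 6.04 in the LGN. On the lens-induced arrays it was detected at 12.3 ± 2.24 in the SCN and at 4.19 ± 1.30 in the LGN, there by 1 of its 2 probes. The image software flagged 4 and 1 of the 15 spots of the 2 probes as well above background in that SCN. In that LGN it flagged 0 for either probe, and on the ocular arrays all 15 for both. The SCN value was at least 1.23-fold that of the normal array and at least 1.84-fold that of the 0 D array, a bound that leaves out the error of the detected side, and the LGN value gave no bound.

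**Figure D1:**
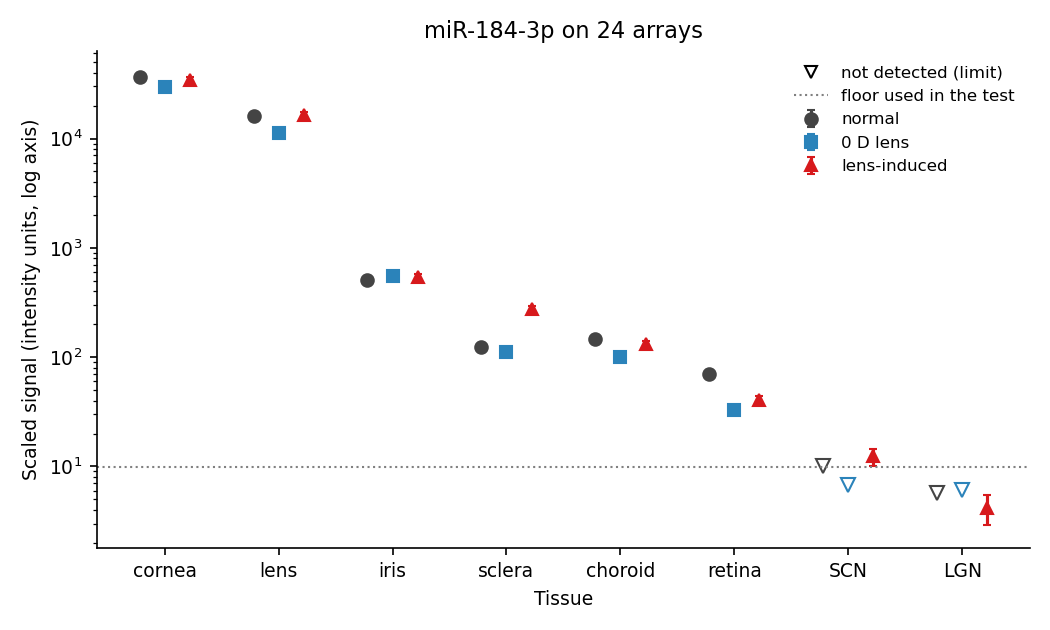
Scaled signal of miR-184-3p (intensity units, log axis) by tissue in the order of mean level, with 1 point per lens group, the probe error as bars and open triangles at the detection limit where it was not detected. Cornea (29710 to 36854) and lens (11130 to 16390) stand above the iris (505 to 550), while sclera and choroid overlap and the brain regions lie near the floor of 9.93 used in the test.

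The order of mean log2 level was cornea, lens, iris, sclera, choroid, retina, SCN and LGN. Each tissue was compared with the next one in a limma fit over 303 miRNAs, with the lens group as a block. The order came from these same values, so the sign of each difference was fixed beforehand. The p-values do not allow for this choice of pairs. Undetected values, and detected ones under the floor such as the LGN value of 4.19, were set to the floor. The cornea was above the lens by 1.22 ± 0.25 (log2, SE, adjusted p = 0.000531 in limma), and it was the higher in 3 of 3 groups. In this contrast 48.2% of all tested miRNAs passed the threshold, so a difference between tissues was common. The lens was above the iris by 4.75 ± 0.25 (limma adjusted p = 3.27e-11, against 50.5% of miRNAs called). Without scaling this difference was 2.66 and after quantile normalization 2.57, both with the call kept. The iris was above the sclera by 1.77 (limma adjusted p = 1.79e-05, 46.2% called). Sclera and choroid differed by 0.32, with an interval from −0.22 to 0.86, which did not pass the test (limma adjusted p = 0.416, 28.1% called) and turned to −0.24 without scaling. The choroid was above the retina by 1.46 (limma adjusted p = 9.36e-05, 53.8% called). The retina was above the SCN by 2.09 (limma adjusted p = 1.51e-06, 56.8% called). With the SCN undetected on 2 of 3 arrays, the size of this difference was set by the floor and ran from 0.96 with normexp background correction to 6.51 with undetected values at 0.1, with the call kept. For SCN and LGN, where nearly all values were at the floor, the difference was 0.10, with an interval from −0.44 to 0.65 (limma adjusted p = 1, 40.3% called). Calls for cornea over lens, iris over sclera and choroid over retina were lost when undetected values were set to 0.1 in place of the floor, as the standard error then rose to 1.29.

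As a share of the summed signal of all miRNAs on an array, miR-184-3p stood out in 2 tissues. It held 28.2%, 25.1% and 29.9% of the signal on the cornea arrays of the normal, 0 D and lens-induced groups (27.7% ± 2.41, SD, n = 3), and it was the brightest but one on each. On the lens arrays the share was 6.76%, 4.995% and 6.86% (6.20% ± 1.05, SD, n = 3), at rank 4 on each. In the iris it was 1.30% ± 0.167 (SD, n = 3) at ranks 17 to 20. The choroid had 0.226% to 0.334% at ranks 44 to 54, and the sclera 0.225% to 0.700% at ranks 33 to 61. The retina had 0.0442% to 0.0888% at ranks 72 to 103. On the lens-induced arrays of the SCN and LGN it held 0.0139% and 0.0059%, at ranks 170 and 209 of 246 and 225 detected miRNAs. Probes differ in how brightly they report a molecule, so a share of signal is not a share of molecules.

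The miRNAs brighter than miR-184-3p in cornea or lens numbered 3. These were miR-6366, miR-5100 and miR-3963, and they were bright in every tissue rather than in these alone. miR-6366 was at rank 1 on each of the 24 arrays, with a mean share of 43.6% in the cornea, 63.9% in the lens and 22.3% to 49.1% in the other tissues. miR-5100 held 3.73% in the cornea and 8.997% in the lens, and miR-3963 held 4.94% and 8.55%. When these 3 were left out of the sum, a step chosen after their values were seen, miR-184-3p held 58.2% ± 2.95 of the signal in the cornea and 33.4% ± 4.17 in the lens (SD, n = 3), at rank 1 on each of those arrays. In the iris it then held 2.08% ± 0.0804, and in the retina 0.0632% to 0.130%.

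**Figure D2:**
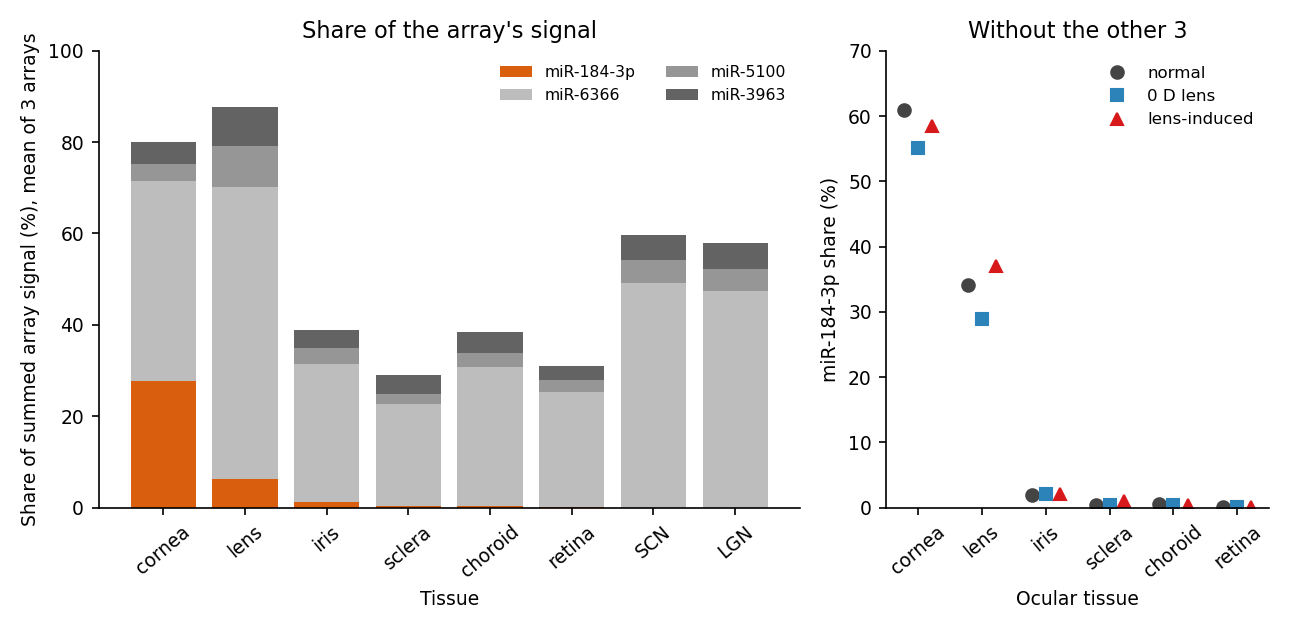
Left, mean share of the summed array signal (%) over 3 arrays per tissue, stacked for miR-184-3p and the 3 other miRNAs that lead cornea and lens; undetected values count as 0. Right, the share of miR-184-3p on each ocular array when those 3 are left out of the sum: 55.1% to 60.9% in the cornea, 28.8% to 37.1% in the lens and 0.0632% to 2.15% elsewhere.

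Whether RNA of cornea or lens was carried into neighboring tissues bears on the low signals, so the tissues were checked against lists of miRNAs known from particular cell types. The 3 retinal miRNAs of the miR-183 cluster had a summed scaled signal of 14498 to 16170 in the retina and at most 1436 in any other tissue. The 4 neuronal miRNAs, led by miR-124-3p, summed to 10326 to 11554 in the retina, 2045 to 2438 in the SCN and 2731 to 3290 in the LGN. The 8 miRNAs of surface epithelium (miR-205-5p, miR-203-3p, miR-31-5p and the 5 members of the miR-200 family) were all detected on every cornea array, with a sum of 2789 to 3216. They were at 66.1 to 82.8 in the iris with 7 of 8 detected, and at 321 to 370 in the lens with 1 of 8 detected. Retinal miRNAs were also present in choroid (813 to 1436), sclera (441 to 1094), lens (131 to 427) and cornea (214 to 244). In the lens the neuronal miRNAs summed to 120, 325 and 390 in the normal, 0 D and lens-induced groups. The 4 striated muscle miRNAs were all detected on each lens array, with a sum of 686 to 757, the highest of any tissue. The part of RNA from other tissues in these samples was not tested. No list held a miRNA specific to the lens. miR-204-5p, known from lens and pigment epithelium, had a scaled signal of 1198 to 1349 in the lens and of 519.5 to 881 in retina, choroid, sclera and cornea. Without scaling it was lower in the lens than in retina and choroid, which had 196% to 255% of the lens signal. In the iris its unscaled signal was 397 to 614, against 396 to 561 in the lens. The other miRNA listed for pigment cells and lens, miR-211-5p, had 6.73 to 11.5 unscaled units in the lens and 1037 to 1828 in the iris.

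In the lens, 7 of the 8 epithelial miRNAs of the cornea were not detected. Its scaled miR-184-3p signal was 43.7%, 37.5% and 48.1% of that of the cornea in the normal, 0 D and lens-induced groups. Its unscaled signal was 32.9%, 26.7% and 24.6% of that of the cornea. At these unscaled fractions of cornea RNA, miR-205-5p, an epithelial miRNA that is undetected in most other tissues here, would have given an unscaled signal of 183, 173 and 137. It was not detected on any of the 3 lens arrays, where the limit was 8.71 to 10.2. miR-203-3p and the 5 members of the miR-200 family were likewise undetected in the lens. The same fraction would have put each above its limit, but miR-203-3p by little, at 10.9, 11.1 and 9.48 against 10.2, 9.12 and 8.71. All such values, here and below, take carried RNA to have the make-up of the whole cornea sample, which was not tested. The member detected was miR-31-5p, with a scaled signal of 369.6, 321 and 357.8 in the lens and 273, 256 and 211 in the cornea, or 125% to 169% of the cornea. Without scaling its lens level was 102%, 89.2% and 86.6% of the cornea, so the direction turned in 2 of 3 groups. The part of carried cornea RNA in the lens signal was not tested.

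The iris differed from the lens in that epithelial miRNAs were present. Its scaled miR-184-3p signal was 1.37%, 1.85% and 1.59% of the cornea, or 3.92%, 6.40% and 3.44% without scaling. Of the 8 epithelial miRNAs, 7 were detected on all 3 iris arrays and miR-203-3p on none. For 6 of the 7 the percentage of the cornea was above that of miR-184-3p in each group, from 1.16 times for miR-141-3p to 5.85 times for miR-31-5p. miR-205-5p was the member below it. At the unscaled percentage seen for miR-184-3p, its unscaled signal would have been 21.9, 41.3 and 19.1, and the sum of its detected probes was 6.58, 16.3 and 6.61. These sums leave out probes under their limit, and with the whole limit of its probes added they come to 15.4, 26.5 and 15.8, still under the 3 values above. How much of the iris signal came from carried cornea was not tested.
miR-205-5p: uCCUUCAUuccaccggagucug
miR-31-5p: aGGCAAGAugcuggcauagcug
The pair is shown, with the seed in capitals, because their seeds differ from each other and from that of miR-184-3p.

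In sclera, choroid and retina the check had too little range. Their scaled miR-184-3p was 0.334% to 0.807%, 0.336% to 0.400% and 0.110% to 0.191% of the cornea. Without scaling these were 0.553% to 1.16%, 0.741% to 1.14% and 0.299% to 0.560%. At the unscaled fractions the brightest epithelial miRNA, miR-205-5p, would have reached an unscaled signal of 6.46 or less in these tissues, under its limits of 6.93 to 11.8. These limits are summed over probes, and a smaller signal can be detected when 1 probe passes its own limit. In normal iris miR-205-5p was detected at 6.58 against a summed limit of 8.81. Its absence from all 9 arrays therefore bears on amounts of cornea RNA above the summed limits and says little about the fractions at hand. miR-31-5p was detected in the choroid at 22.1 to 24.6 scaled units and in the sclera on 2 of 3 arrays, at 7.95 and 8.76, and its percentage of the cornea was over 8 times that of miR-184-3p on each of these arrays. In the LGN, where miR-31-5p was also detected, it had 18.5, 23.8 and 11.0 scaled units in the normal, 0 D and lens-induced groups. At the miR-184-3p percentage of the lens-induced LGN array, cornea RNA would give miR-31-5p 0.0358 unscaled units, against a limit of 12.1. That amount was too small for the check in the LGN. As the LGN is a brain region, miR-31-5p was not confined here to samples with surface epithelium. Whether its signal in choroid and sclera came from such epithelium was not tested. Relative to the lens of the same group, miR-184-3p stood at 3.13% to 4.94% in the iris, 0.763% to 1.68% in the sclera, 0.806% to 0.914% in the choroid and 0.248% to 0.438% in the retina. miR-204-5p was brighter in each of these tissues than lens RNA at the unscaled fraction of miR-184-3p would give. In normal iris miR-184-3p stood at 11.9% of the lens without scaling, and miR-204-5p had 418 unscaled units against 54.5. The miR-204-5p level thus set no bound on carried lens, and carry-over of lens RNA was not tested.

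**Figure D3:**
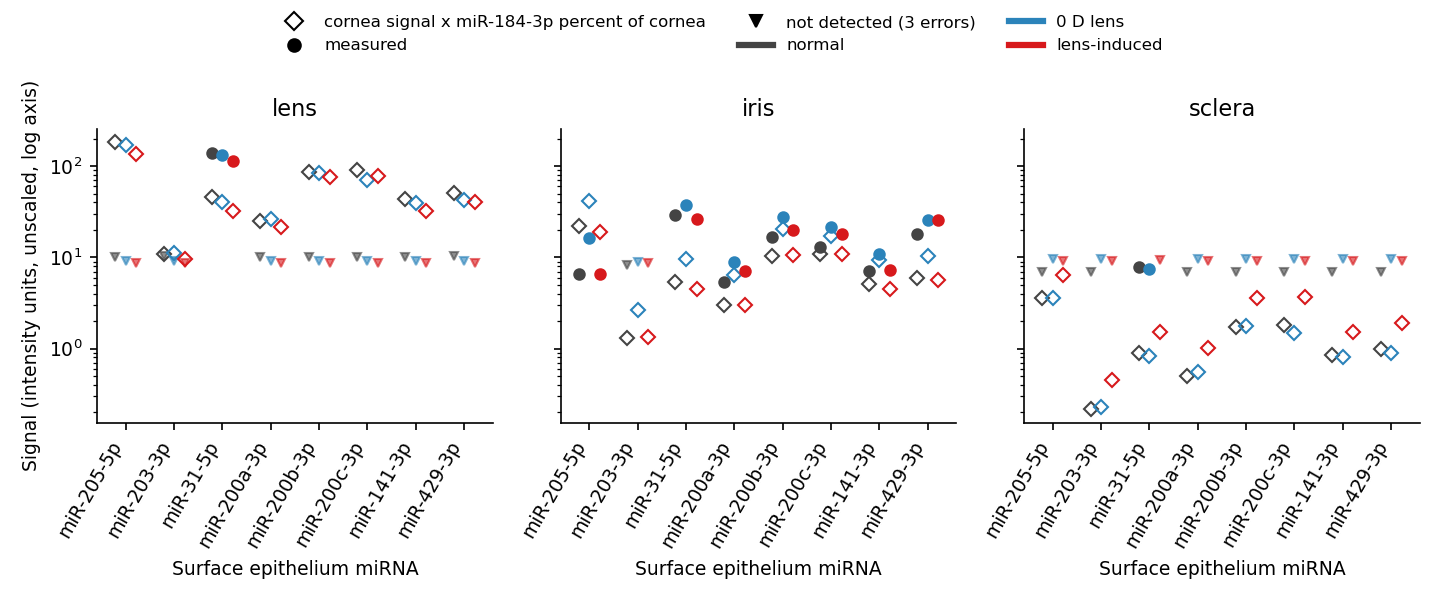
Unscaled signal (intensity units, log axis) of the 8 epithelial miRNAs in lens, iris and sclera. Open diamonds give the cornea signal times the unscaled percentage of the cornea that miR-184-3p had in that tissue, filled circles the measured signal and triangles the limit where undetected. In the lens the diamonds of miR-205-5p lie at 137 to 183 and the limits at 8.71 to 10.2. In the sclera all diamonds lie under the limits.

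Between lens groups, miR-184-3p showed no shift shared by the 8 tissues that passed the limma test. The lens-induced group was above the normal group by 0.07 ± 0.16 (log2, SE, limma adjusted p = 0.937), with an interval from −0.27 to 0.40. In this contrast 0 of 303 miRNAs were called (0.0%), and 26 had an unadjusted p under 0.05. The 0 D group was below the normal group, at −0.32 ± 0.16 (limma adjusted p = 0.386, with 0.66% of miRNAs called). Lens-induced was above 0 D by 0.38 ± 0.16 (limma adjusted p = 0.231, with 0.33% called). The exact two-sided sign-flip permutation test over the 8 tissues gave p = 0.6875, 0.0625 and 0.03125 for these 3 contrasts, or 0.6875, 0.09375 and 0.09375 after Benjamini-Hochberg adjustment over the 3. The third difference was positive in 6 tissues, negative in 1 and at the floor in 1, and after normexp background correction it passed in limma at 0.43 (adjusted p = 0.0206). With undetected values at 0.1, lens-induced minus normal was 1.57 and lens-induced minus 0 D 1.89, neither called in limma. These p-values measure the spread over tissues of the same mice, not over mice.

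Within single tissues, the widest differences between groups were in sclera and retina. The log2 ratio of lens-induced to normal, with the propagated probe error, was −0.11 ± 0.14 for cornea, 0.10 ± 0.15 for iris, 0.02 ± 0.15 for lens and −0.16 ± 0.15 for choroid. For cornea, iris and lens these 2 signals thus lay within that error. The ratio of 0 D to normal was −0.31 ± 0.14 for cornea, −0.53 ± 0.14 for lens and −0.56 ± 0.15 for choroid but 0.12 ± 0.15 for iris, where it was 0.60 without scaling. In the lens the lens-induced array was above the 0 D array by 0.56 ± 0.15, and 1 of the 127 miRNAs detected on both had a larger ratio, but without scaling this was 0.17. In the sclera the ratio was 1.16 ± 0.15, or 2.24-fold, past the 2-fold criterion of the methods. With the 0 D lens the sclera was at −0.14 ± 0.15 against normal, or −0.34 without scaling and −0.68 after quantile normalization, and the lens-induced array was 2.47-fold the 0 D array. Beside this, 13.0% of the 208 miRNAs detected on both arrays were over 2-fold higher in the lens-induced than in the normal sclera, and 4.85% of 206 against the 0 D sclera. Against normal, 20 miRNAs had a larger ratio, and against 0 D, 6 had. After quantile normalization the ratio to normal was 0.86, and after normexp 0.96, both under 2-fold.

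Other lists moved in the sclera as well. The summed retinal miRNAs were 1094 in normal, 441 in 0 D and 524 in lens-induced sclera, and the 4 striated muscle miRNAs were 152, 330 and 254. Of the 8 epithelial miRNAs, 1, miR-31-5p, was detected in normal and in 0 D sclera, and 0 in lens-induced sclera. Its unscaled signal was 7.84 in normal sclera, against a summed limit of 7.75, and 7.52 in 0 D sclera, against 10.2. At the miR-184-3p percentage of the lens-induced sclera, cornea RNA would give miR-31-5p 1.52 units against a limit of 9.28. That amount was too small for its absence to bear on carried cornea. The 5 mesenchymal miRNAs were at 1296, 1351 and 1143 and the 4 blood miRNAs at 89.6, 83.8 and 67.3. The part of the tissue make-up in the sclera ratio was not tested.

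In the retina the lens groups lay below normal. The log2 ratio was −0.79 ± 0.16 for lens-induced and −1.11 ± 0.16 for 0 D, and the latter, 0.463-fold, passed the 2-fold criterion. It was the lowest ratio of the 227 miRNAs detected on both arrays, of which 0.441% were over 2-fold lower, that is miR-184-3p itself. Without scaling it was −0.80, or 0.576-fold, and with normexp −0.84, both short of 2-fold. Lens-induced and 0 D retina differed by 0.32 ± 0.16. The retinal miRNAs hardly moved beside it, with log2 ratios of 0 D to normal from −0.22 to 0.09 for miR-183-5p, miR-96-5p and miR-182-5p. The amounts concerned were small, 0.110% to 0.191% of the cornea signal of the same group. Fewer cells that hold the miRNA and less of it per cell cannot be told apart in such bulk samples.

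**Figure D4:**
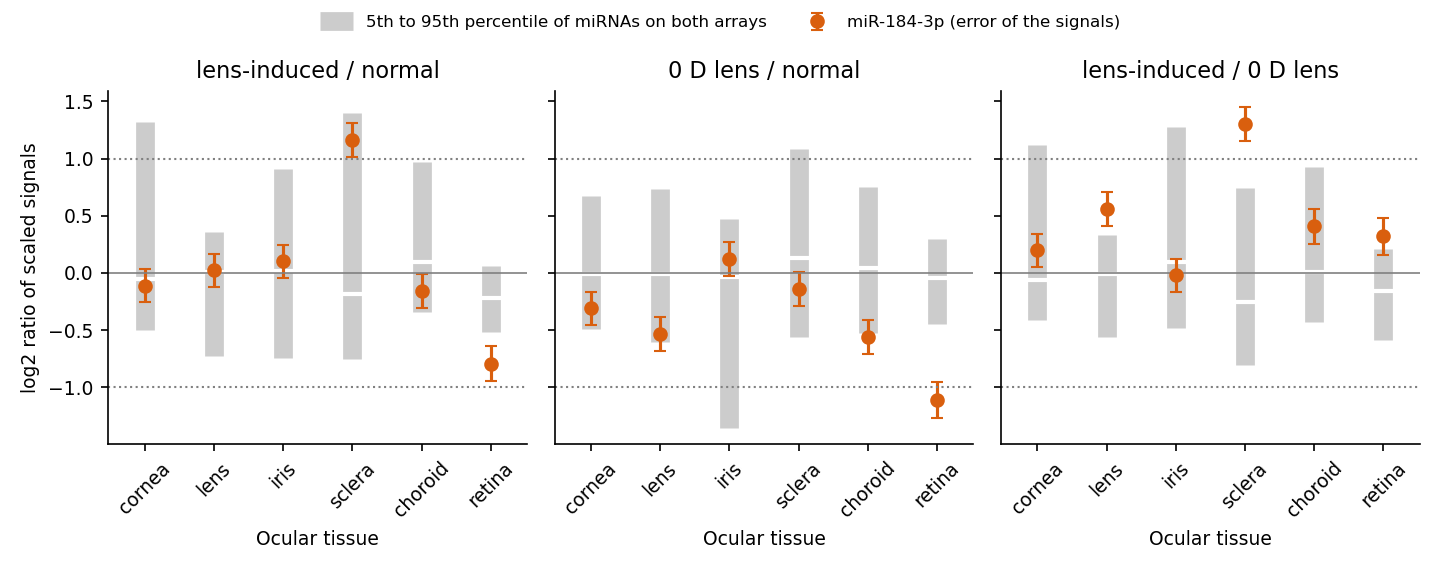
Log2 ratio of scaled miR-184-3p signals between lens groups in each ocular tissue, with the propagated probe error, for 3 pairs of groups. Gray bars span the 5th to 95th percentile of all miRNAs detected on both arrays, white marks their median, and dotted lines mark 2-fold. The sclera lies at 1.16 and 1.30 in both comparisons with the lens-induced array, and the retina at −0.79 and −1.11 in those with the normal array.

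The miRNAs whose log2 level followed that of miR-184-3p most closely over the 24 arrays, out of 302 compared, were miR-31-5p (Pearson r = 0.90), miR-130a-3p (0.89), miR-31-3p (0.88), miR-20a-5p (0.87) and miR-20b-5p (0.84). Over the 18 ocular arrays the closest were miR-31-5p (0.95), miR-31-3p (0.93) and miR-130a-3p (0.91). The arrays share tissues, slides and scaling factors, and the factors were largest for cornea and lens, so these are descriptions. Without scaling, r over the ocular arrays was 0.91 for miR-31-5p and 0.87 for miR-31-3p, but 0.047 for miR-130a-3p. miR-31-5p and miR-31-3p are the 2 strands of 1 hairpin. The 3p strand had 45.4 to 58.7 scaled units in the cornea and 26.1 to 42.1 in the lens and was otherwise detected on 1 iris and 1 LGN array, at 2.44 and 3.35. Like miR-184-3p, both strands had their highest scaled signals in cornea and lens, and miR-31-5p was the higher in the lens there but not without scaling in 2 of 3 groups. miR-20a-5p and miR-20b-5p share the seed AAAGUGC, and miR-20a-5p was at 435.7 to 532 in the lens and 186 to 207 in the cornea. The range of miR-184-3p between tissues was the widest among these 6 miRNAs.

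**Figure D5:**
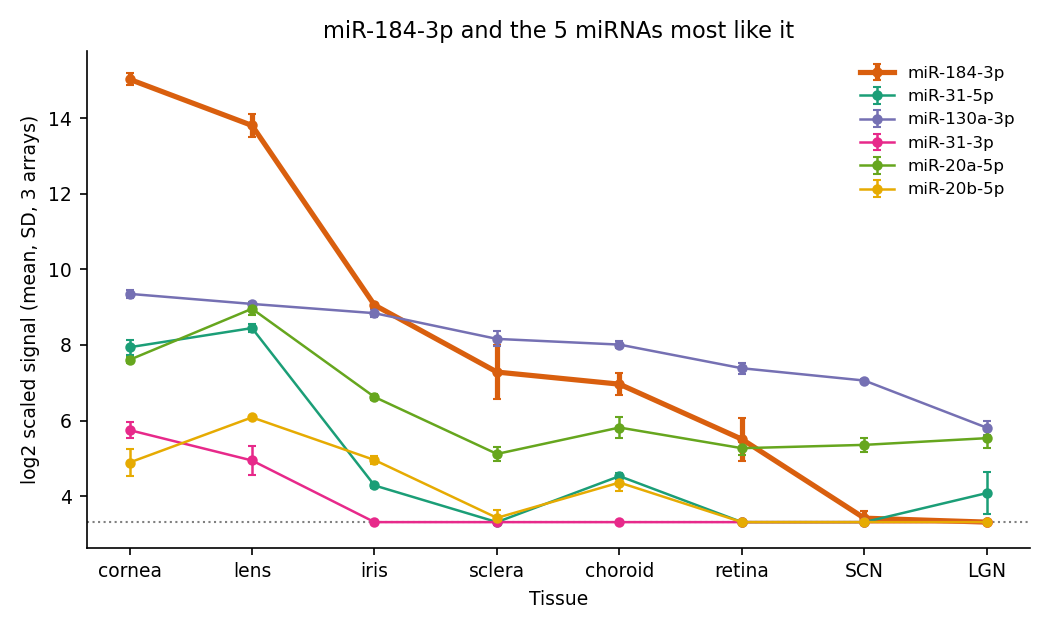
Mean log2 scaled signal over the 3 arrays of each tissue, with the SD as bars, for miR-184-3p and the 5 miRNAs with the highest correlation to it over 24 arrays; the dotted line is the floor. miR-184-3p falls from 15.03 in the cornea to 3.31 in the LGN, and miR-31-5p and miR-20a-5p have their highest scaled signals in the lens.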

How the data were processed

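Total RNA was labeled with cyanine 3 and hybridized by the authors to Agilent mouse miRNA arrays (8 per slide), and each of the 24 arrays was read with Agilent Feature Extraction 10.7.1.1. Per the file headers, the deposited scanner files hold background-subtracted intensity values, a total signal with an error for each probe, and detection flags. The deposited table named normalized was not used here, because its column letters have more than 1 reading. No sample was left out.

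The signal of a miRNA was computed as the sum of its probes above 3 errors, and it agreed within 1% with the printed total on all 20 arrays that detected miR-184-3p. Sums were scaled to an equal 75th percentile over 79 miRNAs (log2 factors −1.01 to 1.65). Between 129 and 249 of 1881 miRNAs were detected per array. For tests, undetected signals and detected ones below it were set to a floor of 9.93, the highest of the arrays' lowest detected signals. Of 337 miRNAs detected on all 3 arrays of at least 1 tissue, the 303 that varied above the floor were fitted in limma 3.58.1 (R 4.3.3) with tissue and lens group as terms and 14 residual degrees of freedom, and p-values were Benjamini-Hochberg adjusted at 0.05. Nothing says that samples of a tissue are replicate animals of 1 condition: they are 3 conditions, so p-values measure the spread between these arrays. The fit was tested on simulated data. The miRNAs named are miR-184-3p and miR-184-5p, 7 lists of cell type markers, the closest in level, and the brightest of cornea and lens. Member, lists and comparisons were chosen with earlier results of these data known. Alternatives covered scaling, background, floor, filter and leaving out arrays. Python 3.11.15, numpy 2.4.6, pandas 2.3.3 and matplotlib 3.10.9 were used.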

Additional observations from a re-analysis of the deposited data

How the results depend on the processing

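Of 84 alternative values for the differences between neighboring tissues, 78 kept direction and side of the threshold. With undetected miRNAs at 0.1, cornea over lens (1.22), iris over sclera (1.77) and choroid over retina (1.46) lost their calls, with adjusted p = 0.650, 0.319 and 0.381 in limma. The standard error was then 1.29. The mean log2 levels of the ocular tissues stayed the same, while that of the SCN went from 3.42 to −1.01 and that of the LGN from 3.31 to −1.53. The fit shares its estimate of the spread over all tissues. Sclera minus choroid turned to −0.24 without scaling, and over the leave-one-out fits by lens group it ran from −0.049 (without the lens-induced arrays) to 0.61. SCN minus LGN passed at 0.40 with normexp. Retina minus SCN was 3.30 without scaling, 1.31 after quantile normalization, 0.96 with normexp and 6.51 with undetected miRNAs at 0.1. Of 51 alternatives for the lens groups, 49 kept direction and side. Lens-induced minus 0 D passed at 0.43 with normexp. Lens-induced minus normal ran from −0.090 (without the sclera) to 0.19 (without the retina) when each tissue was left out. With undetected miRNAs at 0.1, lens-induced minus normal was 1.57 and lens-induced minus 0 D 1.89.

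Within tissues, 22 of 72 values moved beyond their error or across 2-fold, none of them with a call reversed. Those of lens-induced over normal and of the ratios past 2-fold were, without scaling, 0.18 in the cornea and −0.24 in the lens for lens-induced over normal and −0.80 in the retina for 0 D over normal; with normexp, 0.037 in the cornea, −0.56 in the retina and 0.96 in the sclera for lens-induced over normal, −0.84 in the retina for 0 D over normal and 1.02 in the sclera for lens-induced over 0 D; and with quantile normalization, 0.86 and 1.54 in the sclera for lens-induced over normal and over 0 D. Among the others were, without scaling, 0.60 for 0 D over normal and −0.61 for lens-induced over 0 D in the iris and −0.34 for 0 D over normal in the sclera, and, with quantile normalization, −0.68 for 0 D over normal in the sclera and 0 for all ratios of cornea and of lens. The mean share with normexp, whose offset of 50 adds to every probe, was 12.9% in the cornea, 3.29% in the lens, 0.628% in the iris and 0.150% in the choroid, and the median rank in the iris was 20. Without the 3 other brightest miRNAs it was 58.2% in the cornea, 33.4% in the lens, 2.08% in the iris, 0.557% in the sclera, 0.453% in the choroid and 0.0927% in the retina. Without scaling, added after the data were seen, the mean percentage of the cornea was 28.1 for the lens, 4.59 for the iris, 0.900 for the choroid, 0.788 for the sclera and 0.403 for the retina, and that of the lens was 361.6 for the cornea, 16.6 for the iris, 3.19 for the choroid, 2.92 for the sclera and 1.41 for the retina.

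Without scaling the median of all miRNAs shifted by −0.23 for lens minus iris, 0.13 for 0 D minus normal and −0.12 for lens-induced minus 0 D. The 75th percentile over all miRNAs was not above 0 on 1 array, and the columns of the deposited table could not be assigned, so both alternatives were not run. The labels carry no replicate numbers, so tissue and lens group were the blocks. The limits of 5.74 to 10.1 scaled units in the undetected brain samples bound what could be seen there.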
